A study of Mus musculus with 8 samples.

Results

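The regions described here are 1019 m6A peaks that were called in wild-type mouse liver, cross at least 1 splice junction, and were called again in liver of mice labelled as METTL14 knockout. They were chosen from 5586 peaks of the wild-type list (WT) and 12290 peaks of the knockout list (KO). A WT peak was taken when it had 2 or more exonic blocks and when its blocks shared at least 1 base, on the same strand, with a block of a KO peak. Of 1146 WT peaks with 2 or more blocks, 1019 (88.9%) met this rule, and they lie in 866 genes. Because the rule used the peak calls of both genotypes, the presence of a member in KO is part of its definition and not a result.

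WT mice were METTL14f/f, with floxed alleles and no deletion, and KO mice were METTL14Alb. By the usual naming, Alb stands for Cre driven by the albumin promoter, which acts in hepatocytes and leaves the gene in other liver cells. All mice of both genotypes had received tunicamycin at 2 mg/kg intraperitoneally and livers were studied after 24 hours, so untreated liver is not part of the comparison. Polyadenylated and fragmented liver RNA was sequenced directly (input) or after pull-down by an antibody to m6A (IP). Each genotype had 2 input and 2 IP libraries. The labels used here do not state the age or strain of the mice, or whether replicate libraries were made from different animals. The files held 1 peak list per genotype and 1 comparison of input RNA, so every peak has 1 value per genotype, with no replicate spread and no test.

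N6-methyladenosine (m6A) is written into mRNA by a complex of METTL3 and METTL14, mostly within a short motif around GGAC. It is read by YTH proteins and other RNA-binding proteins that affect decay, splicing and translation. Most m6A lies near stop codons and in long exons, and exon junction complexes are known to keep regions close to splice junctions poor in m6A, so peaks that cross junctions are a minority of any m6A map. Tunicamycin blocks N-linked glycosylation and thereby causes stress of the endoplasmic reticulum (ER).

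The gaps between blocks had the lengths of introns in nearly all members. The 1019 members spanned 1215 distinct gaps between blocks, with a median of 1151 genomic bases and an upper value of 88186. Gaps under 30 bases, too short for an intron, numbered 5. Members reached across some junctions by little, since the smallest block of a member had a median of 22 bases and 215 members had a block under 10 bases. Of 1013 members that overlapped the span of their RefSeq gene, 1011 had their midpoint inside it. All 10 hepatocyte markers were measured in input RNA, with mean counts of 5299 to 349244, and 7 of them (Alb, Apoa1, Cps1, Hnf4a, Asgr1, Tat and Serpina1a) carried a member. Of the markers checked for cholangiocytes, macrophages, stellate cells, endothelial cells and lymphocytes, Spp1 and C1qa did.

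Members lay toward the 5′ side of their genes, and this is where sequence could be examined. Of the 1011 members with a midpoint inside the gene span, 274 (27.1%) were centred in its first 10% and 46 (4.55%) in its last 10%. Of 3025 such shared peaks with a single block, 1010 (33.4%) and 914 (30.2%) lay there. The midpoint is that of the genomic interval, introns included. By where peaks begin the order at the 5′ end was the reverse. Of 1013 members 319 (31.5%) began within 100 bases of the gene's 5′ end, against 506 (16.7%) of 3026 single-block shared peaks. By definition a junction peak cannot lie wholly inside the last exon of an mRNA, though it can reach into that exon. The part of this limit in the share of members in the last 10% was not tested. Members covered at least 20 of the first 50 bases of a RefSeq transcript in 116 cases (11.4%), against 166 (5.45%) of 3046 single-block shared peaks. No genome sequence was used here, so the motif was looked for only in such transcript starts.

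The starts below are shown because they belong to members with high WT enrichment (Mpnd, Stard5 and Adck3) or to stress and liver genes that return later (Creb3l3 and Tat). Each is a 30-base run from RefSeq (GRCm38.p6), 5′ to 3′ on the RNA strand with T for U. Capitals mark the first GGAC that the member covers.
Mpnd, chr17:56009221-56009250, plus strand: ggaggaggctgtgccgGGACacagcgtcca
Stard5, chr7:83632030-83632059, plus strand: acgttggcggaatGGACccgtcctgggcca
Adck3 (RefSeq Coq8a), chr1:180193456-180193485, minus strand: gtagaatcagagGGACcatagaactcagcg
Creb3l3, chr10:81092548-81092577, minus strand: caggcggtgacagGGACccgaaaagaggct
Tat, chr8:109990436-109990465, plus strand: ctcatcatcagaGGACttggtggaggagcg

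The letters GGAC stood on the RNA strand in 21 of 66 transcript starts wholly covered by a member (31.8%). They stood on the RNA strand in 18.8% of all 32817 RefSeq starts of the same length. On the opposite strand the shares were 16.7% in the covered starts and 17.4% in all starts. The longer form GGACT, which contains GGAC, was in 3 of the 66 covered starts on the RNA strand (4.55%) and in 5.76% of all starts, and on the opposite strand in 4.55% and 4.87%. Starts wholly covered by single-block shared peaks held GGAC in 17 of 39 cases (43.6%) on the RNA strand and in 9 (23.1%) on the other, so the higher share on the RNA strand was not limited to members. Starts of the 2202 genes with a mean input count at or above the lower quartile of members held GGAC in 20.3% on the RNA strand and 21.3% on the other. These are counts of letters in a window and not called m6A sites.

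Enrichment at the members was lower in KO than in WT for most pairs, but far from all. Enrichment is the authors' value per peak, taken as antibody-enriched over input RNA. Each member was set beside the KO peak with which it shared most exonic bases. Several KO peaks overlapped 27 of the members, and only 1 was kept as partner. Over the 1019 members WT enrichment had a median of 22.4 (quartiles 7.79 and 54.2) and KO enrichment a median of 15.4 (quartiles 7.198 and 32.6). The ratio of KO over WT had a median of 0.733 (quartiles 0.356 and 1.39). KO was lower in 640 pairs (62.8%) and higher in 379 (37.2%). It was at most 0.5 times WT in 362 pairs and at least 2 times WT in 148.

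**Figure D1:**
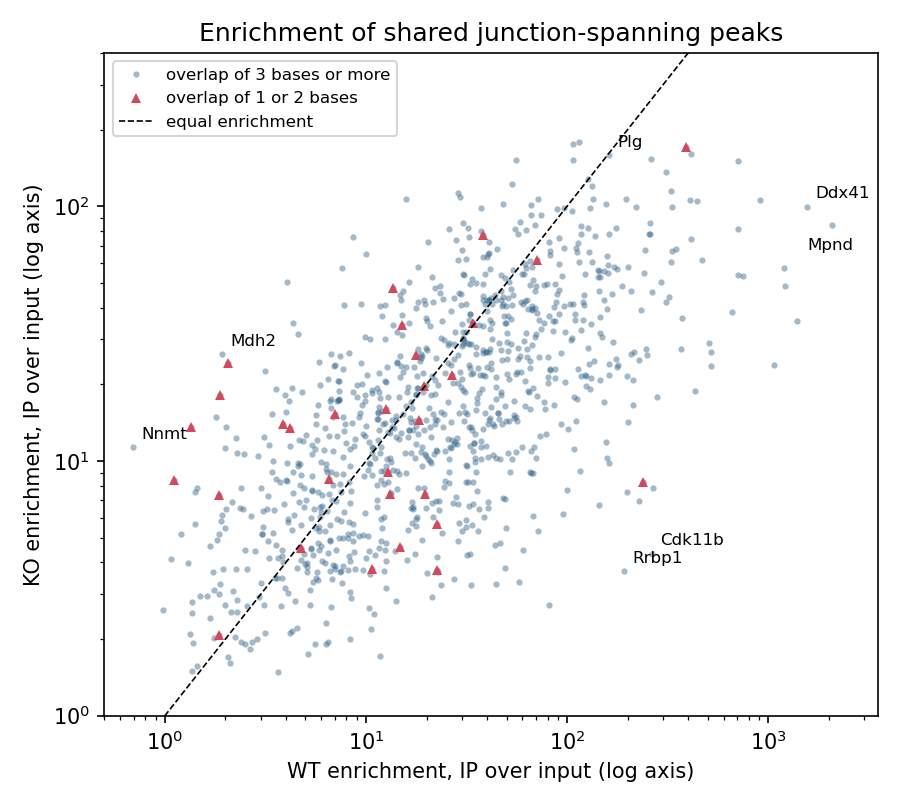
Each point is 1 of the 1019 members, with its WT enrichment on the horizontal and its KO enrichment on the vertical axis (IP over input, both log axes). Points below the dashed line of equality (640) have lower enrichment in KO, triangles are the 30 pairs that overlap by 1 or 2 bases, and values above 100 occur in 143 members in WT and in 26 KO partners.

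The 8 members with the highest WT enrichment were all lower in KO. The highest WT enrichment was at Mpnd, which encodes a JAMM-domain protein (chromosome 17, 56009201 to 56009423, mm10), with 2090 in WT and 84.7 in KO. Ddx41, a DEAD-box helicase that senses DNA, had 1564.5 and 99.6 (chromosome 13, 55536388 to 55536511). The kinase Stk25 had 1387 and 35.4, and the nuclear deacylase Sirt7 1208 and 48.5. Rpl7l1, a ribosomal protein paralogue, had 1196 in WT and 57.5 in KO, and the deglycosylating enzyme Engase 1072 and 23.8. Uba1, which activates ubiquitin, had 907.02 and 106.1 over 4 blocks, and Pik3r1, the regulatory subunit of phosphoinositide 3-kinase, 753.0 and 53.5. These members were picked for a high WT value, so a lower KO value is partly built into the choice.

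The lowest ratios lay far below the median of 0.733. Cdk11b, a kinase of transcription and splicing, had 264 in WT and 4.32 in KO (ratio 0.0164). Rrbp1, a ribosome receptor of the ER membrane, had 193 and 3.702 (ratio 0.0192). Engase and Stk25 followed at 0.0222 and 0.0256. Next came Cltb, a clathrin light chain, with 266 and 7.83 and the glycolytic enzyme Gpi1 with 229 and 6.99. By DESeq2 in the authors' deposited table the input RNA of Cdk11b (log2 change 0.06, adjusted p = 0.834), Cltb (-0.45, adjusted p = 0.0585) and Gpi1 (-0.045, adjusted p = 0.879) did not pass an adjusted p of 0.05. The authors' deposited table called the other 3 lower by DESeq2: Rrbp1 (-0.86, adjusted p = 6.57e-06), Engase (-0.91, adjusted p = 0.00343) and Stk25 (-0.62, adjusted p = 0.00629).

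The highest ratios belonged to members with a WT enrichment of 0.690 to 4.05. These members were picked for a high ratio, so a low WT value is partly built into the choice. By DESeq2 in the authors' deposited table, input RNA was called lower for Nnmt (log2 change -3.36), Adk (-1.85), Bhmt (-3.72), Herpud1 (-2.37) and Agxt (-1.89). Mdh2 (0.54) was called higher. Enrichment is relative to input, and the part of input RNA in these ratios was not tested. Nnmt, which methylates nicotinamide, had 0.690 in WT and 11.3 in KO (ratio 16.4). The WT peak of Nnmt carried an authors' p of 1, and 4 further members had a WT p above 0.05 (Apoe, Cope, Eef1a1 and Itih1). Mitochondrial malate dehydrogenase Mdh2 had 1.91 and 26.2, adenosine kinase Adk 4.05 and 50.7, and betaine-homocysteine methyltransferase Bhmt 2.05 and 24.3. Herpud1, of ER-associated degradation, had 1.35 and 13.6, and the glyoxylate enzyme Agxt 1.88 and 18.2. The pairs of Bhmt, Herpud1 and Agxt shared only 1, 1 and 2 bases with their KO partner, so their values describe neighbouring rather than the same bases. Herpud1 has a further member, which the KO peak covers more fully, with 24.2 in WT and 13.6 in KO.

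The threshold of the rule was met narrowly in few pairs. Overlap was exactly 1 base in 20 members and 1 or 2 bases in 30. Examples just inside are Ube2d3, a ubiquitin-conjugating enzyme, with 70.7 in WT and 61.6 in KO, and Ppp1r12c, a myosin phosphatase subunit, with 239 and 8.27. Of the 127 WT junction peaks left out, 27 touched a KO block without sharing a base. Among these just outside, the sterol transporter gene Abcg8 had 171 in WT beside a KO peak of 36.1, and the acyl-CoA dehydrogenase Acadvl 7.77 beside 122. The peaks left out had a median WT enrichment of 6.78, and 103 of the 127 lay in genes with a KO peak elsewhere.

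KO partners were wider than the WT peaks. Exonic width, the sum of block sizes, had a median of 100 bases in WT and 249 in KO, and the ratio of a pair had a median of 2.0. The KO partner was wider in 863 members (84.7%), equal in 90 and narrower in 66. Single-block shared peaks were wider in KO in 84.4%, with a median width ratio of 3.02, so widening was not particular to members. Over all peaks of each list the median width was 49 bases in WT and 99 in KO. The WT blocks lay wholly inside the KO blocks in 863 members, and 79 pairs had identical blocks. KO partners reached beyond the WT peak on the 3′ side alone in 398 members, on the 5′ side alone in 184, on both sides in 313 and on neither in 124. The 1019 members had 926 distinct KO peaks as partners, and 90 of these overlapped several members.

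**Figure D2:**
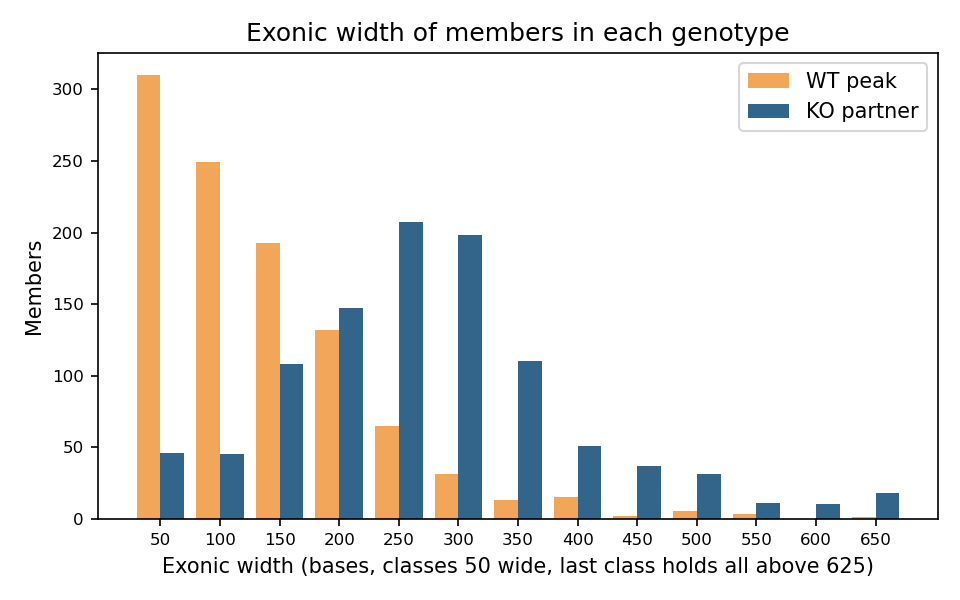
Bars count the 1019 members by exonic width in bases, in classes 50 bases wide (the last holds all wider peaks), for the WT peak and for its KO partner. WT peaks pile up in the narrowest classes around their median of 100 bases, and KO partners around 249 bases.

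A WT peak and its KO partner of different width average over different bases, so the pairs with identical blocks are the closest like-for-like comparison. In these 79 pairs the KO over WT ratio had a median of 0.495 (quartiles 0.269 and 1.096), with KO lower in 58. Where the KO partner was wider by under 2-fold the median was 0.676 (334 pairs), by 2- to under 4-fold 0.76 (331 pairs), and by 4-fold or more 0.86 (198 pairs). In the 77 pairs whose blocks differed and whose KO partner was no wider, it was 0.735, above that of the pairs widened by under 2-fold. Acbd3, a Golgi protein, was among the 58 identical pairs lower in KO, with 162 in WT and 9.83 in KO over 100 bases. Values were closer or higher in KO in others, such as Plg, the precursor of plasmin, with 345 bases in 3 blocks and 161 in WT against 159 in KO. The transcription initiation subunit Taf13 had 99 bases in each list and 115 in WT against 179 in KO.

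Junctions were mostly kept and often gained. Of 1224 junctions spanned by members 1115 (91.1%) were also spanned by the KO partner, and 915 members kept every junction. The KO partner had further junctions in 517 members (50.7%). Block number was higher in KO in 494 members (48.5%), equal in 458 (44.9%) and lower in 67 (6.58%), among which 46 KO partners had 1 block. Of single-block shared peaks, 32.3% had more blocks in KO. Peaks of 2 or more blocks made up 20.5% of the whole WT list and 29.2% of the whole KO list. Of the 854 members with 2 blocks in WT, 382 had 2, 290 had 3 and 104 had 4 in KO.

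**Figure D3:**
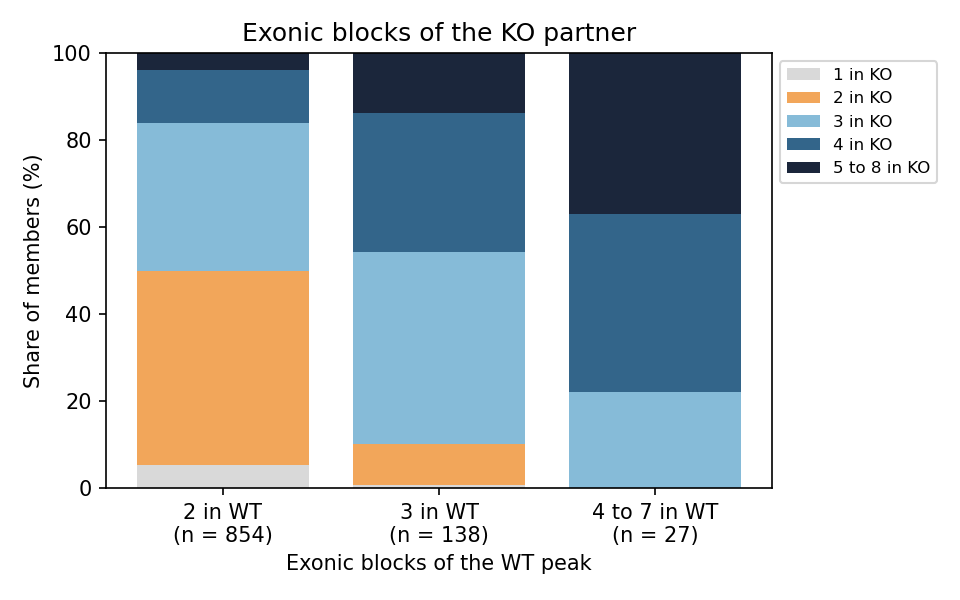
Stacked bars give the share of members (percent) by the number of exonic blocks of the KO partner, for WT peaks with 2, 3 and 4 to 7 blocks (854, 138 and 27 members). Among members with 2 WT blocks, 427 gained blocks, 382 kept 2 and 45 had a single block in KO.

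The members with the most blocks seldom gained further ones. A class I histocompatibility gene, H2-L, had 7 blocks in WT and 3 in the KO partner, with an enrichment of 10.5 and 30.3. Its WT peak overlapped 2 KO peaks, of which 1 was kept as partner. Its KO partner is listed under H2-D1, and 9 members in all have a KO partner under another gene name. This gene belongs to a family of near copies that share reads, so its value is uncertain. Eif3g, a subunit of translation initiation factor 3, had 6 blocks and the same 341 bases in each list, with 15.0 in WT and 12.9 in KO. Prothrombin, F2, had 6 blocks in WT and 5 in KO with 14.9 and 43.0. The endocytic adaptor Pacsin3 (45.4 and 15.4) and the lysosomal protease Ctsl (23.8 and 35.6) had 5 blocks in each list. Among the 27 members with 4 or more WT blocks 4 gained blocks, 15 kept their number and 8 lost some. These members were picked for a high WT block number, so fewer gains and more losses are partly built into the choice.

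In several genes, separate WT peaks fell into 1 long KO peak. All 4 members of Eif3a, the largest subunit of translation initiation factor 3 (chromosome 19), met the same KO peak of 8 blocks and 1792 bases. WT enrichment in Eif3a was 25.9, 20.4, 52.96 and 37.3, and that of the KO peak was 10.1. The WT peaks of Eif3a covered 199, 299, 249 and 100 bases, in the same order. In Gsta3, a glutathione transferase, 4 WT peaks with 34.9, 11.03, 13.1 and 17.6 met 1 KO peak of 6 blocks with 10.3. In Ece1, the endothelin-converting enzyme, 3 WT peaks with 109, 32.6 and 72.5 met 1 KO peak with 35.9, and the fourth (22.5) shared 1 base with a KO peak of 3.75. Hyou1, an ER chaperone of the HSP110 family, also had 4 members, 12.1, 5.65, 9.61 and 5.45 in WT and 13.9, 13.9, 5.14 and 3.34 in KO. In all, 734 genes had 1 member, 115 had 2, 13 had 3 and 4 had 4.

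In the pairs with the largest losses of width, the KO partner had 49 or 50 bases. Col18a1, which encodes collagen XVIII, went from 200 to 49 bases and from 2.07 in WT to 1.70 in KO. The complement component C8a went from 199 to 49 bases (11.4 and 8.08), and the carboxypeptidase N subunit Cpn2 from 199 to 49 (4.605 and 9.80). The WT peak of Cpn2 overlapped 2 KO peaks, and the 49 bases are those of the partner alone. Spc24, a kinetochore protein, went from 200 to 50 bases with 37.2 and 98.3. The KO partners of Col18a1, C8a and Cpn2 had 1 block and that of Spc24 had 2.

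The enrichment ratio moved with the abundance of the mRNA. Members were divided into 4 equal groups by the mean normalized input count of their gene, a mean over both genotypes from the authors' deposited table. In the group with the lowest counts (256 members, means of 46.5 to 985) enrichment had a median of 38.6 in WT and 18.8 in KO, and a median ratio of 0.476. In the group with the highest counts (255 members, means of 6103 to 349244) the medians were 9.61 and 11.2, and the ratio 1.11. KO was higher in 23.0% of the first and in 55.7% of the last group. The median log2 change of input RNA also fell along these groups, from -0.49 in the first to -1.49 in the last. Abundance and change of input RNA cannot be told apart here. Across pairs the log2 ratio and the log2 mean count had a Pearson r of 0.304 (Spearman 0.321, 1019 pairs), which share the input libraries in both quantities. Enrichment itself had a Pearson r of 0.654 between the lists on the log2 scale.

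**Figure D4:**
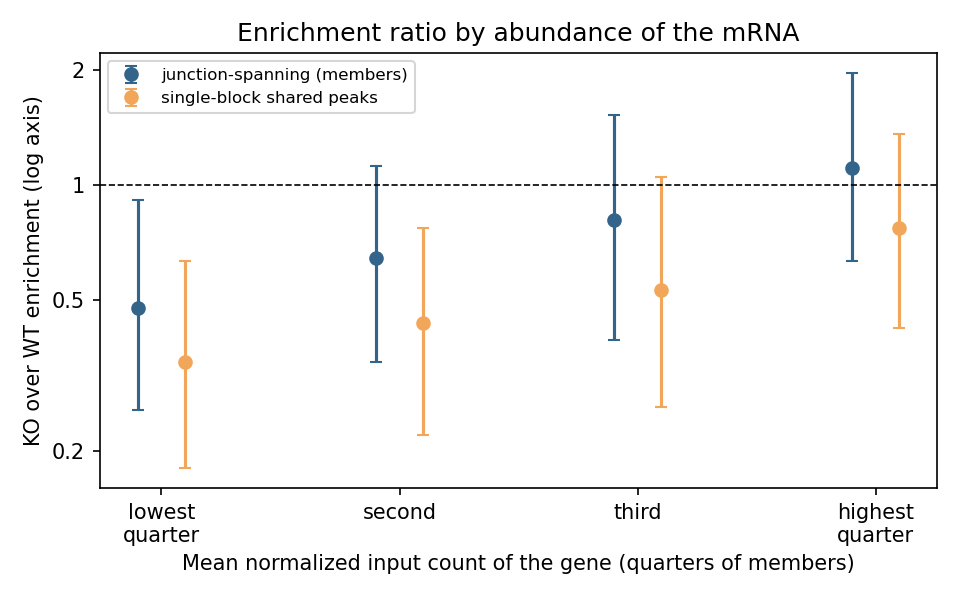
Points are the median KO over WT enrichment (log axis) of members and of single-block shared peaks in 4 groups by mean normalized input count of the gene, and bars reach from the lower to the upper quartile. In every group the members lie above the single-block peaks, from 0.476 against 0.343 in the lowest to 1.11 against 0.770 in the highest group.

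Single-block shared peaks, the most similar set, had a lower ratio. Their 3046 pairs had a median of 0.446, from a median of 32.8 in WT and 13.5 in KO, and KO was lower in 79.2%. In each of the 4 groups of mean count the median was lower than that of the members. Within the 417 genes that had shared peaks of each kind, the median ratio was 0.901 at members and 0.628 at single-block peaks. The ratio was higher at the member in 267 of these genes (64.0%). In these genes the median WT enrichment was 17.9 at members and 18.7 at single-block peaks, and the median KO enrichment 13.6 and 9.90. WT enrichment was lower at the member in 228 of the 417 genes, and the KO enrichment higher at the member in 187. Of all 1019 members, 366 had a KO partner that also overlapped other WT peaks, so the remaining genes may include ties in KO enrichment. With 1 list per genotype this difference has no error over libraries and was not tested.

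Input RNA of most member genes was lower in KO liver. The deposited comparison does not name its numerator, so every direction of input RNA here rests on reading it as KO over WT. That reading was taken from where peaks were called. Of 347 genes averaging 100 counts or more and with a deposited log2 value above 2, 156 had peaks solely in KO and 0 solely in WT. Of 403 genes below -2, 30 had peaks solely in KO and 46 solely in WT. By the DESeq2 test of the authors' deposited table, 605 of 866 member genes (69.9%) were called at an adjusted p of 0.05, against 42.5% of all 14257 tested genes. Lower in KO were 565 member genes (65.2%, against 22.2% of all tested) and higher 40 (4.62%, against 20.4%) in the authors' deposited table. Their median log2 change was -0.79, beside 0.046 over all tested genes. Of all 2988 genes with a WT peak of any kind, 51.5% were lower and 10.2% higher. Of 84 genes with unshared WT junction peaks and no member, 67.9% were lower, with a median log2 change of -0.98. A member had to be called in WT, so the choice of genes was not independent of their input RNA. The part of this choice in the lower input RNA was not tested.

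Member genes were more abundant than most, and abundant genes were more often lower in KO. Member genes had a median mean count of 2020, beside 211 over all tested genes, and 865 of the 866 had a mean of at least 100. Of the 1009 tested genes at or above the member median, 69.7% were lower and 7.43% higher in the authors' deposited table, with a median log2 change of -0.92 and 77.1% called in either direction. Of the 9202 with a mean of at least 100, 52.2% were called, 31.4% lower and 20.8% higher. The 1009 genes have a higher median mean count (3744) than the member genes and include 433 of them, so member genes were also set beside tested genes without a member in 4 ranges of mean count, cut at the quartiles of the member genes. From the lowest to the highest range, the authors' deposited table called 46.5%, 58.3%, 73.1% and 82.9% of member genes lower. Of genes without a member it called 19.3%, 45.6%, 60.5% and 72.0% lower. Member genes were the more abundant within every range. Their median mean count was 604 against 247 in the lowest and 10663 against 9277 in the highest. The share was higher for member genes in all 4 ranges, and this difference was not tested. In bulk liver, fewer cells of a type and less RNA per cell cannot be told apart. The authors' deposited table shows that 6 of 7 cholangiocyte markers and 4 of 7 stellate cell markers were higher in KO, and 8 of 10 hepatocyte markers were lower. Apoa1 alone among the hepatocyte markers was higher. Of 7 macrophage markers 1 was higher and 2 were lower, of 7 endothelial markers 0 and 1, and of 6 lymphocyte markers 0 and 0. All 10 hepatocyte markers lie in the highest range of mean count, where 82.9% of member genes and 72.0% of other genes were lower. The part of these cells in the changes was not tested, and marker levels per library are not in the files used here. Mettl14 itself had no peak in either list, and the authors' deposited table gave it a log2 change of -0.50 ± 0.41 (SE, DESeq2 adjusted p = 0.342).

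**Figure D5:**
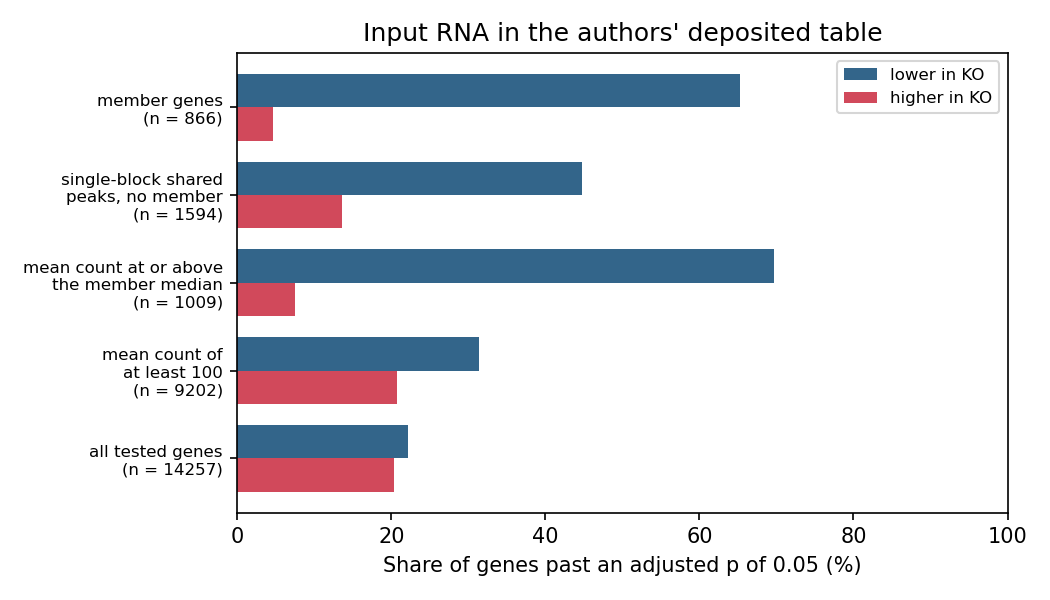
Bars give the share of genes (percent) called by the authors' deposited table at an adjusted p of 0.05, lower or higher in KO, for member genes and 4 reference sets with n beside each. Member genes (65.2% lower) lie below genes with a mean count at or above the member median (69.7% lower) and above all tested genes (22.2% lower).

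The pairs also differed by the change of their mRNA. In the 669 members whose gene was called lower in KO, enrichment had a median ratio of 0.818, in 294 members of genes not called 0.579, and in 56 members of genes called higher 0.502. Enrichment is relative to input, and the gene's input RNA therefore enters each of these values. The members of genes not called had a lower median mean count (1133) than those of genes called lower (2938) or higher (3184). The part of mean count in these ratios was not tested.

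The 5 largest rises of input RNA among member genes included genes of the cytoskeleton and matrix. By the authors' deposited table tropomyosin Tpm4 rose by 2.37 ± 0.24 (SE, DESeq2 adjusted p = 7.46e-22), osteopontin Spp1 by 2.24 ± 0.22, annexin Anxa5 by 1.93 ± 0.19, Gsta4, which clears lipid aldehydes, by 1.86 ± 0.32, and the matrix protein Sparc by 1.83 ± 0.23. Enrichment at the members of all 5 was lower in KO: Tpm4 128 in WT and 66.1 in KO, Spp1 56.4 and 14.3, Anxa5 12.5 and 9.596. Gsta4 had 63.0 and 25.5 and Sparc 110.1 and 37.7. All 5 KO partners were wider and had more blocks.

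The 5 largest falls included several secreted hepatocyte proteins. By the authors' deposited table Serpina1e, an antitrypsin paralogue that shares reads with near copies, fell by 5.95 ± 0.62 (SE) on the log2 scale. The log2 change in the authors' deposited table was -4.29 ± 0.25 for Isoc2b, -4.24 ± 0.19 for the ribonuclease angiogenin (Ang), -4.10 ± 0.22 for the hepatokine Fgl1 and -3.78 ± 0.20 for C8a. Enrichment in these genes went either way. It was 6.52 in WT and 12.6 in KO for Serpina1e, 14.7 and 44.7 for Isoc2b, and 4.12 in WT for Ang, whose KO partner (17.15) is listed under Rnase4 and shares 63 bases and no junction with it. The pairs of Serpina1e and Isoc2b shared 49 bases each and likewise no junction. Fgl1 had 50.4 and 31.9 and C8a 11.4 and 8.08.

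Among gene lists, secreted plasma proteins held the most members. Of 55 listed genes 28 had a member, with 36 peaks, and their median ratio was 1.22, with KO lower in 15 of 36 peaks. Of all 14257 tested genes 866 (6.07%) had a member. Of the 1009 tested genes with a mean count at or above the member median, 433 (42.9%) did. These shares are the background for each list below as well. In the highest of the 4 ranges of mean count used above (member genes from 5254), 217 tested genes had a member and 143 did not. Plg, Serpinc1, F12 and Alb, named below, lie in that range. Over all members the median was 0.733 with KO lower in 62.8%, and in the members with the highest mean counts it was 1.11 with KO higher in 55.7%. The authors' deposited table called 26 of the 28 genes lower in KO and 0 higher, beside 51 and 0 of 54 tested genes of the whole list. The highest WT value was that of Plg (161 and 159), whose second member had 4.41 in WT and 2.83 in KO. Antithrombin, Serpinc1, had 47.8 in WT and 44.2 in KO. Coagulation factor F12 had 37.98 and 27.4, and albumin, Alb, 35.2 and 49.9.

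Further plasma protein genes had a higher value in KO. Haptoglobin, Hp, which binds free haemoglobin, had 4.28 in WT and 19.3 in KO. Both members of the contrapsin gene Serpina3k were higher in KO (2.48 and 10.6, 1.08 and 4.13), as were the fibrinogen chains Fga (5.72 and 12.1) and Fgb (2.45 and 6.49). The 3 members of complement C3 went the other way, with 7.01, 3.76 and 3.15 in WT and 3.88, 2.69 and 2.11 in KO.

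Genes of the unfolded protein response, the program that tunicamycin evokes, held 26 members in 16 of 47 listed genes. Their median WT enrichment was 11.1 and their median ratio 0.812, with KO lower in 14 of 26 peaks. The authors' deposited table called 1 of the 16 genes higher, 10 lower and 5 not at all, beside 10 higher and 21 lower among 45 tested genes of the list. Dnajc3, the co-chaperone p58IPK, had the highest value, 199.6 in WT and 7.53 in KO. The protease Mbtps1, which cleaves ATF6, had 179.1 and 23.8, and the stress sensor Atf6 itself 68.9 and 84.4. Calnexin, Canx, a lectin chaperone, had 3 members with 113, 96.9 and 49.5 in WT and 71.5, 40.5 and 40.5 in KO. The 3 members of the chaperone Hsp90b1 had 78.1, 8.096 and 5.32 in WT and 16.0, 5.18 and 5.97 in KO.

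Transcription factors of that response had ratios from 0.537 at Xbp1 to 1.38 at Creb3l3. Atf4, the effector of the PERK arm, had 11.5 in WT and 14.6 in KO, with 50 and 198 bases. Xbp1, the substrate of IRE1, had 26.5 and 14.2 over 299 and 349 bases. Creb3l3, a hepatic ER-bound factor, had 29.5 and 40.8, and its member covers the transcript start printed above. In the authors' deposited table the log2 changes were 0.05 for Atf4 (DESeq2 adjusted p = 0.902), -0.74 for Xbp1 (adjusted p = 5.86e-04) and -1.63 for Creb3l3 (adjusted p = 1.01e-13). The disulfide isomerase Pdia4, the one listed member gene called higher (0.65, adjusted p = 0.00519 in the authors' deposited table), had 10.7 and 11.3.

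None of 12 listed writers and adaptors of m6A had a member, and 3 of 15 readers and erasers did, beside 866 of all 14257 tested genes (6.07%). These readers and erasers held 5 members, all lower in enrichment and wider in KO. The demethylase Fto had 323 in WT and 43.9 in KO, over 100 and 446 bases. The reader Prrc2a had 95.4 and 6.21 at one member and 37.8 and 19.2 at the other. Hnrnpa2b1, a nuclear reader, had 58.7 and 22.4 at the member at its transcript start and 5.85 and 5.51 at the other. By the authors' deposited table Prrc2a rose by 0.45 ± 0.19 (SE, DESeq2 adjusted p = 0.0398), while Fto (-0.099, adjusted p = 0.740) and Hnrnpa2b1 (-0.29, adjusted p = 0.181) did not pass.

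Liver regulators and metabolic enzymes gave smaller numbers. Of 35 hepatocyte transcription factors and nuclear receptors, 3 had members: Hnf4a with 35.9 in WT and 23.3 in KO, the oxysterol receptor Nr1h3 with 19.5 and 7.84, and Klf15 with 4.72 and 8.02 and with 4.64 and 4.49. All 3 were lower in KO in the authors' deposited table, beside 18 lower and 3 higher of 34 tested genes of the list. Lipid and sterol metabolism had 12 peaks in 10 of 55 genes, with a median ratio of 0.676. The lipid transfer protein Stard5 had 441 and 104.5 over the same 248 bases, and Insig2, which retains SREBP in the ER, 41.4 and 14.8. The carnitine transferase Cpt1a had 21.3 and 18.4 in WT against 21.6 and 14.5 in KO, the latter pair sharing 1 base.

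Of 39 cytochrome P450 and xenobiotic enzymes 8 had 1 member each. Epoxide hydrolase Ephx1 had 177 in WT and 56.6 in KO, Cyp2f2 100.3 and 7.67, the carboxylesterase Ces1c 47.2 and 24.8, and the P450 reductase Por 25.5 and 28.5. The authors' deposited table called 2 of the 8 genes higher (Ephx1 and Ces1c) and 5 lower, beside 8 higher and 25 lower of the 39 genes of the whole list. Growth factor signalling had 3 members in 50 genes: Pik3r1, described above, the Wnt effector Ctnnb1 with 157 and 102.3, and the glucagon receptor Gcgr with 14.6 and 17.8. The remaining lists had 1 member each, Bax of the p53, apoptosis and cell cycle list (7.56 and 3.32) and the remodeller Chd4 of the chromatin list (39.0 and 41.4). Of the list that holds Bax, 25 of 39 tested genes were higher and 4 lower in the authors' deposited table. Of the chromatin list, 20 of 53 were higher and 1 lower there.

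Members at transcript starts had slightly higher values in each list than the others. The 116 members that covered at least 20 of the first 50 bases had a median of 27.1 in WT and 21.8 in KO and a median ratio of 0.879. The 903 others had 22.3 and 14.9 and a median ratio of 0.715. Mean input counts also differed, with medians of 3094 and 2114 for the start members and the others. At the 27 start members that covered GGAC on the RNA strand the medians were 40.1 in WT and 29.4 in KO. At the other 89, which include any on chromosome 18, where no search was made, they were 19.7 and 16.5. The median ratio was 0.657 with a covered GGAC and 0.960 for the other start members, so the former lay below the 0.715 of members elsewhere. Tat, tyrosine aminotransferase, had 28.6 in WT and 113 in KO, the highest ratio among start members (3.95). The coenzyme Q kinase Adck3 had 199.3 in WT and 21.7 in KO.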

How the data were processed

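Liver RNA of 2 libraries per group was measured by input and m6A IP sequencing. Per the submitters' processing notes, HISAT2 2.1.0, the mm10 build and DESeq2 1.18.1 were used. No source used here names the peak caller, the read counter or the annotation. Library depth is unknown. Each deposited peak carries an enrichment, read here as a linear ratio (IP over input), a block number, and a value from 0 to 1 read as the authors' p-value. In the authors' deposited table the mean is a signal (normalized count), the fold change and SE are log2 values, its statistic is a score, and p and adjusted p-values are from DESeq2.

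Blocks were built as start plus block starts with the listed sizes. Rows with 1 block are listed 1 base shorter than their span. Overlaps were computed in Python 3.11.15 with pandas 2.3.3, by code tested on simulated data. Of 866 gene names 833 matched a RefSeq symbol and 32 a synonym. Members and gene lists (10 lists, 400 genes) were chosen with earlier results of these data known. Genes are named by rule: the 8 highest WT values, 6 highest and 6 lowest ratios, 5 with most blocks, 4 largest gains and 4 largest losses of width, 5 largest rises and falls of input RNA, 4 genes with most members, up to 4 per list, and Mettl14. Others named were chosen after their values were seen. No count model or limma fit was run, since no file names single libraries. p-values of the deposited table measure only the spread between libraries, which may be technical. Alternatives were other overlaps, partners, thresholds and gene subsets. Some genes that the naming rule covers are not reported here. The comparison of input RNA within 4 ranges of mean count was chosen after seeing the data.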

Additional observations from a re-analysis of the deposited data

How the results depend on the processing

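The number of members stayed within 1.5 times of 1019 under 5 of 6 alternatives. It was 485 when the overlap had to cover 50% of each peak, which by construction removes widened pairs; the median enrichment ratio was then 0.643, the width ratio 1.40 and the share of equal block number 60.2%. With pairs that are 1 to 1 these were 0.632, 1.66 and 53.6%. The enrichment ratio was 0.579 in genes not called in input RNA, and the share of equal block number was 48.6% with 1 pair per gene. No alternative brought the median enrichment ratio to 1 or above, but the alternatives did not divide members by abundance. The mean count cut of at least 100 kept 1018 of the 1019 members. In the 255 members with the highest mean counts the median ratio was 1.11, with KO higher in 55.7%. It was 0.476, 0.643 and 0.808 in the groups with lower counts. A median below 1 thus did not hold for the members with the highest mean counts. Requiring a 2-fold change left 14 member genes higher and 340 lower. Of alternatives chosen after seeing the data, lengthening single-block rows by 1 base gave 1027 members, and leaving out members with a WT p above 0.05 gave a median enrichment ratio of 0.723. No paired analysis was possible because the deposited files hold no values per library and so carry no replicate numbers, and fits without 1 library and with limma were not run for the same reason. Depth of the peak lists is unknown, so no counting error could be given.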
